A study of Mus musculus with 13 samples.

Results

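The messenger RNA of mouse E14 embryonic stem cells was compared between 2 experiments run on different days, for genes outside chromosomes 8 and Y. Experiment 2 is represented by 2 libraries, from 10000 and from 20000 cells, and experiment 1 by the matching 2. These 4 of the 13 libraries of the series were fitted together. The remaining mRNA library, from 5000 cells of experiment 2, stayed outside the fit and served to check directions. Of 24470 genes in the count table, 23223 lie outside chromosomes 8 and Y (1196 are on chromosome 8 and 51 on chromosome Y). Among these, 11825 had enough counts to be tested.

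E14 is an established line of 129/Ola origin, and here the cells were grown in serum with leukemia inhibitory factor (LIF), the cytokine that keeps mouse embryonic stem cells undifferentiated. All libraries come from this line, with no genotype change, treatment or time course, and the experiments differ by day alone as far as the labels go. Cells were opened with a mild detergent, their accessible chromatin was cut by the Tn5 transposase, and polyadenylated RNA was then caught from the same lysate on oligo(dT) beads and made into a library. No difference in culture between the days is recorded, and nothing says that libraries of the same day came from separate cultures. The p-values therefore measure the spread between the 2 libraries of a day, which also differ in cell number. Day and any other difference between the experiments cannot be told apart.

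Total counts per library ran from 13727122 to 20426252, and 1.62% to 2.22% of them fell on mitochondrial mRNAs. The genes left out moved as a block: chromosome 8 took 5.22% to 5.27% of counts in experiment 1 and 6.58% to 6.89% in the 3 libraries of experiment 2. Levels are given as CPM, counts scaled to the library's total, always with the 10000-cell library first and the 20000-cell library second. The label of embryonic stem cells fits the markers in each library. Nanog, a core pluripotency factor, stood at 227 and 251 CPM in experiment 1, 228 and 221 CPM in experiment 2 and 207 CPM in the 5000-cell library. Markers of other cell types ranged from 0 upward. The collagen gene Col3a1 and Lum were at 0 in all 5 libraries. Thy1 of the same fibroblast list, which stem cell lines can also express, stood at 29.2 and 33.9 CPM in experiment 1. In the mesendoderm list Mesp2 and Snai1 stood at 8.6 and 8.7 CPM and 8.3 and 7.96 CPM there, while T, a mesoderm factor, reached at most 0.709 CPM.

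Embryonic stem cells in serum are a mixture of states that interconvert. LIF acts through STAT3 and bone morphogenetic proteins (BMPs) through SMADs and Id proteins to hold back differentiation, while FGF and ERK signalling pushes cells toward later states. Many genes needed only in germ cells are kept silent in these cells by DNA methylation and by a noncanonical Polycomb complex whose MGA and E2F6 subunits bind E-box and E2F6-type sequences, and p53 target genes report on growth arrest and cell death programs.

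Experiment 2 differed from experiment 1 in 1343 of the 11825 genes tested, 11.4% (edgeR quasi-likelihood test, Benjamini-Hochberg adjusted p under 0.05). Of these, 505 were higher in experiment 2 (4.27% of genes tested) and 838 were lower (7.09%). A change of at least 2-fold, a log2 fold change of 1, was seen in 188 of the higher and 373 of the lower genes. The median log2 fold change over all genes tested was -0.02. The number of calls rested on individual libraries: it was 654 without the 10000-cell and 758 without the 20000-cell library of experiment 2, 853 without the 10000-cell library of experiment 1 and 1601 without the 20000-cell library of experiment 1. Of 30 counts of 1 or 2 calls over the gene lists, 25 moved by over 1.5 times without 1 library, to between 0 and 4. The values below are set against these shares, and the plot of gene lists gives each list's members.

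**Figure D1:**
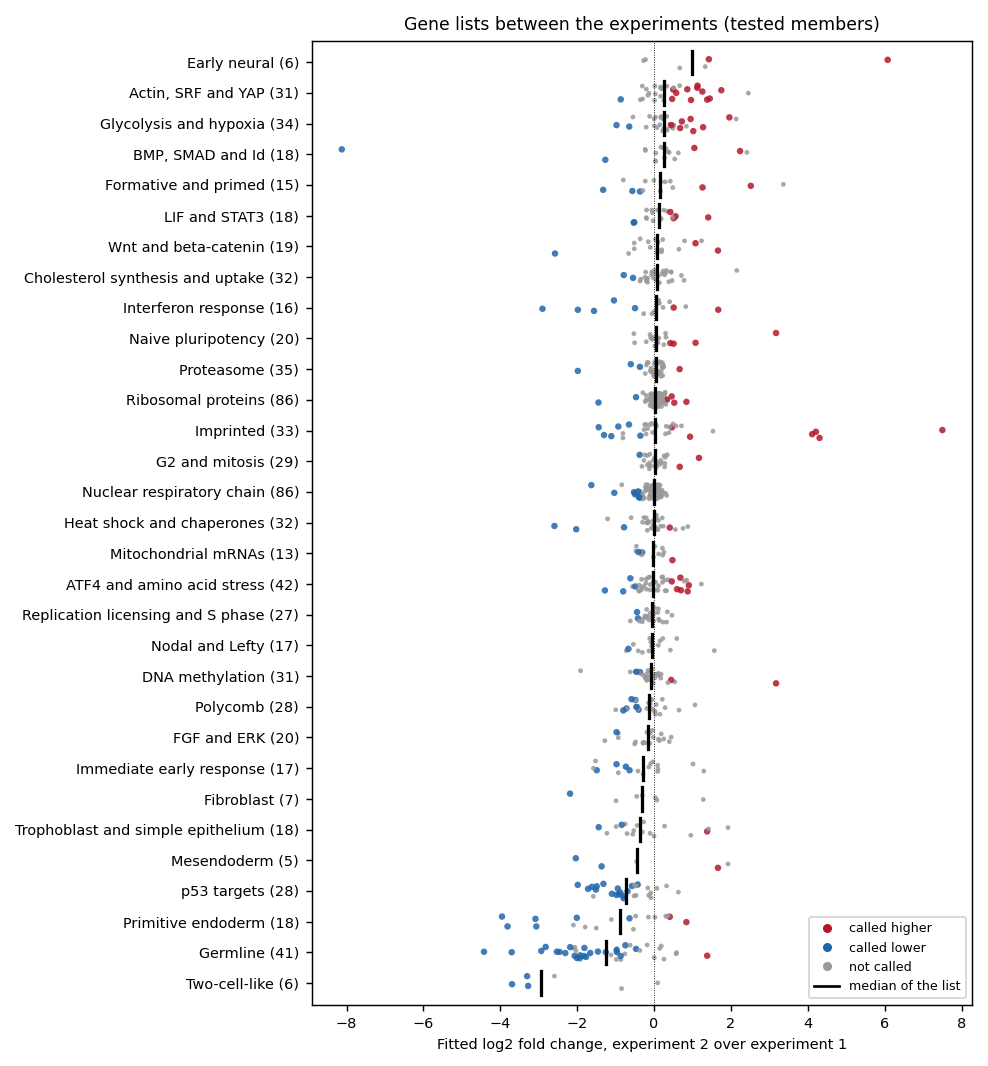
Fitted log2 fold change (experiment 2 over experiment 1) of the tested members of each gene list with at least 5 of them, with red and blue points for genes called higher and lower (edgeR adjusted p under 0.05), grey points for the rest and a black bar for the list's median. The germline and p53 target lists lie mostly to the left, with medians of -1.26 and -0.74; the outermost points on either side, Smad9 and Rian, have 0 or 1 count in 1 experiment, so their positions depend on the fit's prior count.

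Genes of the germline list fell in experiment 2. The list holds genes used in meiosis, in piRNA pathways and in the testis; 41 of its 60 genes were tested, 23 were called lower, 1 higher and 17 were not called. The median log2 fold change was -1.26, and 34 of the 41 were below 0. The experiments' CPM ranges did not overlap in 35 of them, against 52.8% of all genes tested. Fkbp6, a co-chaperone of the piRNA pathway and of meiosis, had 51.2 and 57.8 CPM in experiment 1, 3.48 and 1.71 CPM in experiment 2 and 1.61 CPM in the 5000-cell library. Its log2 fold change of -4.43 (SE 0.25) was the largest fall among genes that averaged 10 CPM or more and had separate ranges (edgeR adjusted p = 1.73e-11).

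The promoters of 4 germline genes called lower were picked for display because they hold sequences that the list's known repressors read. Tsx was added without that condition. These promoters do not stand for the list, and motif shares over the list are given below. They are the RefSeq stretches from 250 bases before to 50 bases after the gene's start (GRCm38.p6, the mm10 assembly), printed 5′ to 3′ along the gene. Capitals mark the E-box CACGTG and the E2F6-type motif GCGGGAA, on either strand. Fkbp6 (chr5:135349995-135350294, minus strand) holds the E-box at 2 places, Mael (chr1:166238695-166238994, minus strand) at 1, Slc25a31 (chr3:40708621-40708920, plus strand) has both motifs, Smc1b (chr15:85131908-85132207, minus strand) has the E2F6-type motif alone, and Tsx (chrX:103414217-103414516, plus strand) has neither.
Fkbp6: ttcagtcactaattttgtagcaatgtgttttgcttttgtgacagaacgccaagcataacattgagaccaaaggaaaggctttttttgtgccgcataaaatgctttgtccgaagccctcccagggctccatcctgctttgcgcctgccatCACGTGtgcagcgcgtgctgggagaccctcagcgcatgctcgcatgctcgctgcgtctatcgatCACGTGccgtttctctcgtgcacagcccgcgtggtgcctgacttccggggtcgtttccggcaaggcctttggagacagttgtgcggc
Mael: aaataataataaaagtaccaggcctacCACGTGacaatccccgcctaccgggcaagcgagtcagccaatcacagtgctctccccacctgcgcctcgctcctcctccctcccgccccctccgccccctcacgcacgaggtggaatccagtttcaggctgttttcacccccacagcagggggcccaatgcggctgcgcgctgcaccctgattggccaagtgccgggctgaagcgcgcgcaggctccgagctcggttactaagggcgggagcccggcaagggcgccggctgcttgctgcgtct
Slc25a31: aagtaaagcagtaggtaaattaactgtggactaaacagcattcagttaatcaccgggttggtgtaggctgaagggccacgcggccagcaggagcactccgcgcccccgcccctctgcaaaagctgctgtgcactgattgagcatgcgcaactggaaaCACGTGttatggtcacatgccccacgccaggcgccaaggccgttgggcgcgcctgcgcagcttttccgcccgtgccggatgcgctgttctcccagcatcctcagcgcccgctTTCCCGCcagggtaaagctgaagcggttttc
Smc1b: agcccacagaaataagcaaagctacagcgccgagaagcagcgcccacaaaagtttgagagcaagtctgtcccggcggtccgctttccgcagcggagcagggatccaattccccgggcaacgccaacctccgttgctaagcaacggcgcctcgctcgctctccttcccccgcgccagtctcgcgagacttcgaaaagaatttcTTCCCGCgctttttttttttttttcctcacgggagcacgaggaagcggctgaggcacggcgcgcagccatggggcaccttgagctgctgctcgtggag
Tsx: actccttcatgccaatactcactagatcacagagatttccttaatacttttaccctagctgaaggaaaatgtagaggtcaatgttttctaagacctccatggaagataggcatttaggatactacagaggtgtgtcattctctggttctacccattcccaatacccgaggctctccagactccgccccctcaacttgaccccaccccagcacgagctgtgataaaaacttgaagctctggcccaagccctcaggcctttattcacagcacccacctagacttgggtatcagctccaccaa

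Germline genes that fell and germline genes that were not called both hold these motifs. The E-box was found in 10.7% of the 9501 promoters of tested genes and the E2F6-type motif in 8.98%. Among the 35 germline genes with a promoter sequence the shares were 37.1% and 34.3%. Split by call, 5 of the 21 promoters of genes called lower held the E-box, against 8 of the 13 of genes not called. The E2F6-type motif was in 6 of those 21 and in 6 of those 13. No test was made of these shares, and a match is a string of letters, not a bound site. CG pairs, the targets of DNA methylation, numbered 16 per promoter (median) in the germline genes called lower and 21 over all promoters, and the strings shown range from 3 in Tsx to 29 in Smc1b.

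Meiotic and piRNA genes were among the falls. Mael, a piRNA factor, had 19.9 and 18.2 CPM in experiment 1, 3.42 and 4.21 CPM in experiment 2 and 2.45 CPM in the 5000-cell library (log2 fold change -2.31, SE 0.26, adjusted p = 7.8e-07 by edgeR). Tex19.2 had 9.18 and 8.23 CPM in experiment 1, 0.516 and 1.86 CPM in experiment 2 and 2.09 CPM in the 5000-cell library. In both genes the experiments' ranges lay apart and the 5000-cell library sat with the rest of experiment 2. Of the synaptonemal complex genes that were called, Sycp1 stood at 5.39 and 5.55 CPM in experiment 1 and 1.48 and 1.37 CPM in experiment 2. Syce1 stood at 36.6 and 42.2 CPM in experiment 1 and 22 and 18.3 CPM in experiment 2. The cohesin subunit Smc1b stood at 7.65 and 5.62 CPM in experiment 1, 2.06 and 1.13 CPM in experiment 2 and 0.0597 CPM in the 5000-cell library. Hormad2, which marks unsynapsed chromosomes, stood at 11.3 and 11.8 CPM in experiment 1 and 3.87 and 2.74 CPM in experiment 2. These 4 had edgeR adjusted p of 0.00533, 0.000532, 0.00237 and 0.000239. Dazl, a germ cell RNA-binding protein, stood at 8.09 and 6.02 CPM in experiment 1, 3.03 and 2.11 CPM in experiment 2 and 4.06 CPM in the 5000-cell library (edgeR adjusted p = 0.0123). Single libraries decided the calls of Sycp1 (adjusted p up to 0.053 without the 20000-cell library of experiment 2), Smc1b (adjusted p up to 0.0511 without the 20000-cell library of experiment 2) and Dazl (adjusted p up to 0.135 without the 20000-cell library of experiment 2).

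X-linked and testis genes of the list were called in both directions. Tsx, named for its testis expression, fell from 24.4 and 23.8 CPM to 2.39 and 3.82 CPM, with 2.68 CPM in the 5000-cell library (log2 fold change -2.94, SE 0.26, adjusted p = 2.25e-08 by edgeR). Usp26, a testis deubiquitinase, had 3.93 and 4.35 CPM in experiment 1, 0.387 and 0.245 CPM in experiment 2 and 0.597 CPM in the 5000-cell library (edgeR adjusted p = 0.000454). Rhox5, an X-linked homeobox gene, went the other way and was the only gene of the list called higher, at 44.9 and 44.2 CPM in experiment 1, 113 and 118 CPM in experiment 2 and 115 CPM in the 5000-cell library (log2 fold change 1.38, SE 0.13, adjusted p = 1.06e-07 by edgeR). Tuba3a, a testis tubulin, had 47.9 and 57.5 CPM in experiment 1 and 15.2 and 14.5 CPM in experiment 2; it has a near-identical relative, Tuba3b, so the counts of both are uncertain, as are those of the Tex19 pair, the Rhox cluster and Rpl10l.

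Members that did not pass the test are as much a part of the list. Stag3, a meiotic cohesin, stood at 31.9 and 28.1 CPM in experiment 1, 29.9 and 30.2 CPM in experiment 2 and 25.8 CPM in the 5000-cell library. Dmc1, the meiotic recombinase, stood at 13.8 and 11.6 CPM in experiment 1 and 11.3 and 16.7 CPM in experiment 2; in both the experiments overlapped. Ddx4, a germ cell helicase, had 5.17 and 3.75 CPM in experiment 1 and 2.84 and 2.06 CPM in experiment 2 (log2 fold change -0.87, edgeR adjusted p = 0.222). The count of 23 dropped to 14 without the 10000-cell library of experiment 2 and to 11 without its 20000-cell library, and was 9 when tests were limited to genes averaging 10 CPM or more. Slc25a31, shown for its promoter, lost its call without the 10000-cell library of experiment 1 (-2.58, adjusted p = 0.13), without the 10000-cell library of experiment 2 (-3.66, adjusted p = 0.0557), without the 20000-cell library of experiment 1 (-2.45, adjusted p = 0.146) and without the 20000-cell library of experiment 2 (-1.83, adjusted p = 0.277). Over the whole list, 38 of the 41 genes lay on the side of the experiment 1 mean in the 5000-cell library that the fitted libraries of experiment 2 had, 92.7% against 73.3% of all genes tested. That library is compared with the same experiment 1 libraries, so it is not an independent check. Over all genes the share was 99.4% for those called lower and 70.1% for those not called. A list rich in calls therefore lies above 73.3% through its calls. In bulk RNA, fewer cells that express a gene and less of it per cell cannot be told apart.

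**Figure D2:**
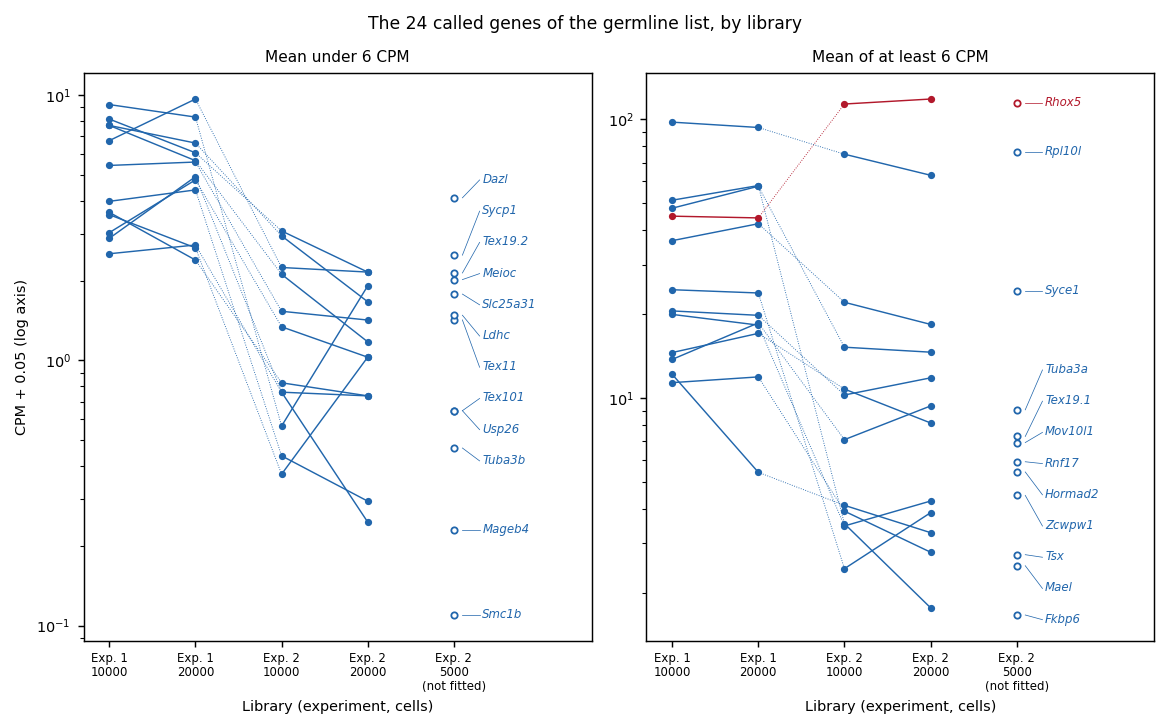
CPM plus 0.05 on a log axis for the 24 called genes of the germline list in each library, with lines joining a gene's values, blue for lower and red for higher, and open circles for the 5000-cell library outside the fit. Rhox5 alone goes up, from 44.9 and 44.2 to 113 and 118 CPM; Fkbp6 has the steepest drop.

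Genes tied to the repression of germline genes were called in either direction. Of 31 tested genes of the DNA methylation list, 2 were called higher and 2 lower, near the share over all genes, with a median of -0.07. Dnmt1, the maintenance methyltransferase, stood at 188 and 183 CPM in experiment 1 and 156 and 183 CPM in experiment 2. Dnmt3b, which adds new methylation, stood at 36.3 and 29 CPM in experiment 1 and 24 and 31.6 CPM in experiment 2; neither passed the test. Mga stood at 20.2 and 16.5 CPM in experiment 1 and 16.2 and 16.2 CPM in experiment 2. E2f6 stood at 34 and 35.7 CPM in experiment 1 and 31.1 and 28.1 CPM in experiment 2, and neither was called. Pcgf6, another subunit of that complex, was called lower at 96.6 and 72.9 CPM in experiment 1 and 57.8 and 65.1 CPM in experiment 2 (log2 fold change -0.46, edgeR adjusted p = 0.0398), and the histone methyltransferase gene Setdb1 was called higher at 51.2 and 59.6 CPM in experiment 1 and 78 and 72.5 CPM in experiment 2 (log2 fold change 0.44, edgeR adjusted p = 0.0406). Single libraries decided the calls of Pcgf6 (adjusted p up to 0.536 without the 10000-cell library of experiment 1) and Setdb1 (adjusted p up to 0.339 without the 10000-cell library of experiment 1). Scaled by library size alone, the adjusted p was 0.0526 for Pcgf6 and 0.0508 for Setdb1. Dppa3 (Stella), which hinders maintenance methylation and marks naive cells and germ cells, rose from 0.947 and 1.14 CPM to 7.42 and 11.5 CPM, with 14.9 CPM in the 5000-cell library (log2 fold change 3.17, SE 0.40, adjusted p = 5.85e-06 by edgeR). Dnmt3l, a cofactor of the new-methylation enzymes, stood at 319 and 340.0 CPM in experiment 1 and 249.5 and 261 CPM in experiment 2 (log2 fold change -0.37, SE 0.11, adjusted p = 0.0359 by edgeR). That call ended without the 10000-cell library of experiment 1 (-0.41, adjusted p = 0.122), without the 10000-cell library of experiment 2 (-0.33, adjusted p = 0.152), without the 20000-cell library of experiment 1 (-0.30, adjusted p = 0.235) and without the 20000-cell library of experiment 2 (-0.39, adjusted p = 0.0794).

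Polycomb subunits were called in 1 direction only: 6 of 28 tested were lower, 0 were higher (0 at an unadjusted p under 0.05 by edgeR and 0 called by DESeq2), and the median was -0.14. Suz12, a core subunit of PRC2, had 139.9 and 117 CPM in experiment 1, 92.9 and 77.6 CPM in experiment 2 and 72.6 CPM in the 5000-cell library (log2 fold change -0.59, edgeR adjusted p = 0.00559). Epop, which tunes PRC2, had 149 and 164 CPM in experiment 1 and 103 and 121 CPM in experiment 2. The catalytic subunit Ezh2 stood at 142 and 141 CPM in experiment 1 and 165 and 163 CPM in experiment 2 and was not called. The 6 calls dropped to 3 without the 10000-cell library of experiment 1 and to 1 without either library of experiment 2; Suz12 lost its call without the 10000-cell library of experiment 1 (-0.45, adjusted p = 0.112) and without the 20000-cell library of experiment 2 (-0.45, adjusted p = 0.0945), and Epop without the 10000-cell library of experiment 2 (-0.37, adjusted p = 0.151) and without the 20000-cell library of experiment 1 (-0.40, adjusted p = 0.115).

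Zscan4 genes, which mark the rare cells in these cultures that resemble the embryo at its 2-cell stage, were called lower. Zscan4a had 7.28 and 5.62 CPM in experiment 1, 1.16 and 0.196 CPM in experiment 2 and 0 CPM in the 5000-cell library. Zscan4c stood at 6.41 and 5.75 CPM in experiment 1, 1.16 and 0.147 CPM in experiment 2 and 0.298 CPM in the 5000-cell library (edgeR adjusted p = 0.000309 and 0.000575). Zscan4d was called lower as well, but its 2.27 CPM in the 5000-cell library lay within the 2.26 and 2.54 CPM of experiment 1. Its call ended without the 10000-cell library of experiment 1 (-3.76, adjusted p = 0.0624), without the 20000-cell library of experiment 1 (-3.56, adjusted p = 0.093) and without the 20000-cell library of experiment 2 (-2.59, adjusted p = 0.173), and with the 5000-cell library added (adjusted p = 0.42). The copies are near-identical, so reads can be split between them in ways the counting decides. Of the list, 6 of 30 genes were tested, 3 were lower, and Zfp809 and Tcstv3 were not called.

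Imprinted genes moved in both directions: of 33 tested, 6 were higher and 6 lower, with a median of 0.03. The largest rises were the noncoding RNAs of the Dlk1 to Dio3 region of chromosome 12, which are made from the maternal copy and whose silencing in some mouse pluripotent lines is well known. Meg3 (chr12:109540996-109571729 in the files' mm10 coordinates, plus strand) had 1.31 and 1.27 CPM in experiment 1, 22.1 and 25.8 CPM in experiment 2 and 18.5 CPM in the 5000-cell library (log2 fold change 4.21, SE 0.29, adjusted p = 2.02e-10 by edgeR). Rian (chr12:109603945-109661716) had 0 and 0.0669 CPM in experiment 1, 7.29 and 8.08 CPM in experiment 2 and 3.4 CPM in the 5000-cell library, and Mirg (chr12:109734981-109749458) had 0.364 and 0.134 CPM in experiment 1, 4.64 and 5.34 CPM in experiment 2 and 5.07 CPM in the 5000-cell library. All 3 genes were near 0 in both libraries of experiment 1 and present in all 3 of experiment 2. Rian had 1 count in experiment 1 and 278 in experiment 2, a ratio of 222 with a 95% exact counting interval of 39.5 to 8793. Dlk1, the protein-coding gene made from the paternal copy of the region, stood at 4.08 and 1.94 CPM in experiment 1, 1.23 and 3.92 CPM in experiment 2 and 3.16 CPM in the 5000-cell library and was not called, and Rtl1 had too few counts to be tested.

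The other imprinted genes that were called lie elsewhere. Impact, a regulator of translation made from the paternal copy, rose from 50.4 and 50.0 CPM to 101 and 90.6 CPM, with 76.5 CPM in the 5000-cell library (edgeR adjusted p = 4.33e-05). Cdkn1c, a cell cycle inhibitor, fell from 140.2 and 128 CPM to 58.5 and 82 CPM (log2 fold change -0.93, SE 0.14, adjusted p = 8.2e-05 by edgeR). Slc22a18, Phlda2 and Ascl2 of the same cluster on chromosome 7 were lower too, with log2 fold changes of -1.30, -0.36 and -1.44. The call of Phlda2 ended when any 1 library was left out (adjusted p up to 0.186 without the 20000-cell library of experiment 1). In the 5000-cell library Cdkn1c stood at 63.4 CPM and Slc22a18 at 10.3 CPM, below experiment 1. Ascl2, at 3.76 CPM there, was just below the 3.86 and 5.62 CPM of experiment 1, and lost its call without the 10000-cell library of experiment 2 (-1.34, adjusted p = 0.213), without the 20000-cell library of experiment 1 (-1.13, adjusted p = 0.191) and without the 20000-cell library of experiment 2 (-1.54, adjusted p = 0.147). Kcnq1ot1, the noncoding RNA of that cluster, stood at 0.874 and 1.07 CPM in experiment 1 and 4.26 and 1.42 CPM in experiment 2 and was not called. Mest, at 0.219 and 0 CPM in experiment 1, 1.35 and 2.55 CPM in experiment 2 and 0.477 CPM in the 5000-cell library, rests on 3 counts in experiment 1 and 73 in experiment 2. It was called higher, but not without the 10000-cell library of experiment 2 (4.49, adjusted p = 0.0619), without the 20000-cell library of experiment 1 (3.14, adjusted p = 0.0523) and without the 20000-cell library of experiment 2 (3.58, adjusted p = 0.342), nor with the 5000-cell library added (adjusted p = 0.0599).

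Many targets of p53 fell: 16 of 28 tested were lower, 12 were not called, 0 were higher (0 at an unadjusted p under 0.05 by edgeR and 0 called by DESeq2), and 25 of 28 were below 0, with a median of -0.74. Trp53 itself, which encodes p53, did not pass the test, at 163 and 137 CPM in experiment 1, 114 and 153 CPM in experiment 2 and 125 CPM in the 5000-cell library (log2 fold change -0.17, edgeR adjusted p = 0.507). Bbc3 (Puma), which triggers apoptosis, fell from 40.1 and 44.2 CPM to 12.4 and 13.1 CPM with 15.8 CPM in the 5000-cell library (log2 fold change -1.72, SE 0.18, adjusted p = 3.61e-07 by edgeR). Ccng1, which encodes cyclin G1, fell from 96.1 and 96.9 CPM to 42.5 and 34.9 CPM with 47.7 CPM in the 5000-cell library (log2 fold change -1.32, SE 0.15, adjusted p = 7.8e-07 by edgeR). The 2 genes have narrow, well-separated ranges in all libraries.

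Feedback and arrest genes of the p53 list were called as well. Mdm2, which degrades p53, stood at 44.9 and 49.7 CPM in experiment 1, 29.9 and 33.6 CPM in experiment 2 and 23.1 CPM in the 5000-cell library. Cdkn1a (p21), which halts the cell cycle, stood at 43.5 and 46 CPM in experiment 1, 26.2 and 29.1 CPM in experiment 2 and 26.1 CPM in the 5000-cell library. Their log2 fold changes were -0.57 and -0.69 (edgeR adjusted p = 0.0171 and 0.00515), and their ranges did not overlap. Ei24 had 8.67 and 9.3 CPM in experiment 1 and 3.35 and 2.94 CPM in experiment 2, Zmat3 16.2 and 15.3 CPM in experiment 1 and 7.87 and 9.15 CPM in experiment 2 and Trp53inp1 17.7 and 16.6 CPM in experiment 1 and 9.54 and 6.51 CPM in experiment 2; all 3 were called lower, as were Ddit4l, Plk2 and Btg2 at log2 fold changes of -1.99, -1.62 and -1.49. Single libraries decided the calls of Mdm2 (adjusted p up to 0.169 without the 10000-cell library of experiment 2), Cdkn1a (adjusted p up to 0.0765 without the 10000-cell library of experiment 2), Zmat3 (adjusted p up to 0.131 without the 10000-cell library of experiment 2), Trp53inp1 (adjusted p up to 0.0874 without the 20000-cell library of experiment 2), Ddit4l (adjusted p up to 0.24 without the 20000-cell library of experiment 1), Plk2 (adjusted p up to 0.0939 without the 10000-cell library of experiment 2) and Btg2 (adjusted p up to 0.055 without the 20000-cell library of experiment 2). Bax, a partner of Bbc3 in apoptosis, stood at 324 and 279.7 CPM in experiment 1, 256 and 291 CPM in experiment 2 and 254 CPM in the 5000-cell library. Pmaip1 (Noxa) stood at 5.25 and 3.81 CPM in experiment 1 and 3.8 and 2.74 CPM in experiment 2, and neither was called. Sesn2, also in the stress list, was at 41.3 and 21.9 CPM in experiment 1 and 13.9 and 22.1 CPM in experiment 2, so that the libraries from 10000 cells differed and those from 20000 cells did not. Its call ended without the 10000-cell library of experiment 1 (-0.27, adjusted p = 0.606) and without the 10000-cell library of experiment 2 (-0.51, adjusted p = 0.358). The number of p53 targets called lower was 5 without the 10000-cell library of experiment 2, and 11, 12 and 15 when each of the others was left out. Of the 28 tested, 24 (85.7%) lay on the matching side of the experiment 1 mean in the 5000-cell library, against the same 73.3% of all genes. That share was 99.4% for all genes called lower and 70.1% for those not called, so this count adds little to the calls.

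**Figure D3:**
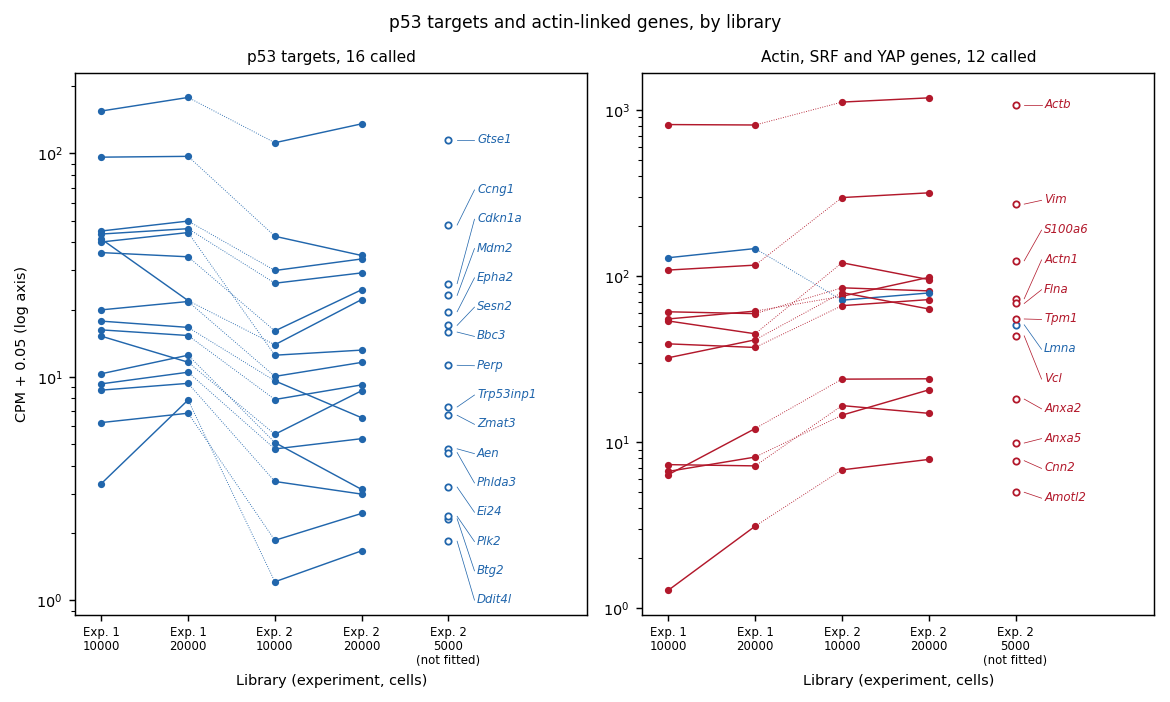
CPM plus 0.05 on a log axis for the called p53 targets (left, 16 genes, all lower) and the called genes of the actin, SRF and YAP list (right, 11 higher in red and Lmna lower in blue), drawn like the germline plot. Ccng1 drops from 96.1 and 96.9 to 42.5 and 34.9 CPM while Vim climbs from 109 and 116 to 297 and 317 CPM.

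Some genes of the cytoskeleton and of the SRF and YAP programs, which respond to tension and cell shape, rose. Of 31 tested, 11 were higher, 1 was lower and 19 were not called, with a median of 0.25. Vim (vimentin, an intermediate filament) rose from 109 and 116 CPM to 297 and 317 CPM, with 271 CPM in the 5000-cell library (log2 fold change 1.45, SE 0.12, adjusted p = 9.49e-09 by edgeR). S100a6, a calcium-binding protein, had 53.6 and 44.9 CPM in experiment 1, 120.2 and 95.2 CPM in experiment 2 and 123 CPM in the 5000-cell library. Vcl (vinculin, of focal adhesions) had 32.2 and 41.3 CPM in experiment 1, 79.5 and 63.3 CPM in experiment 2 and 43.6 CPM in the 5000-cell library. Tpm1 (tropomyosin) stood at 39 and 37.1 CPM in experiment 1, 66.3 and 72.1 CPM in experiment 2 and 55.1 CPM in the 5000-cell library. In these 4 genes every library of experiment 2 lay above both of experiment 1. Their edgeR adjusted p ran from 9.49e-09 to 0.000233.

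Other members of that list add detail. Actb (beta-actin) stood at 815 and 811 CPM in experiment 1, 1113 and 1181 CPM in experiment 2 and 1063 CPM in the 5000-cell library (log2 fold change 0.50, edgeR adjusted p = 0.00246), while Actg1 (gamma-actin) stood at 264 and 194 CPM in experiment 1 and 227 and 302 CPM in experiment 2 and was not called. Cnn2 (calponin) was called higher at 6.63 and 8.1 CPM in experiment 1 and 14.5 and 20.6 CPM in experiment 2, but its 7.7 CPM in the 5000-cell library fell inside the range of experiment 1. Its call ended without the 20000-cell library of experiment 2 (0.99, adjusted p = 0.0663). The classic YAP targets Ccn1 and Ccn2 had 0.219 and 1.14 CPM in experiment 1 and 1.1 and 1.08 CPM in experiment 2 and 6.77 and 4.55 CPM in experiment 1 and 7.22 and 8.86 CPM in experiment 2, respectively, and were not called. Lmna, of the nuclear lamina, went down from 129 and 146 CPM to 71.5 and 79.1 CPM with 50.8 CPM in the 5000-cell library (log2 fold change -0.87, SE 0.13, adjusted p = 5.47e-05 by edgeR). The number called higher was 7 without the 20000-cell library of experiment 2.

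Of the 6130 genes that averaged 10 CPM or more, 909 (14.8%) were called and had separate CPM ranges. The 12 largest falls and 11 of the 12 largest rises of these are plotted by library. All of those plotted kept their direction and their call under each alternative fit that was run, including those that left out 1 library. Meg3, Fkbp6, Mael and Tsx were described above.

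**Figure D4:**
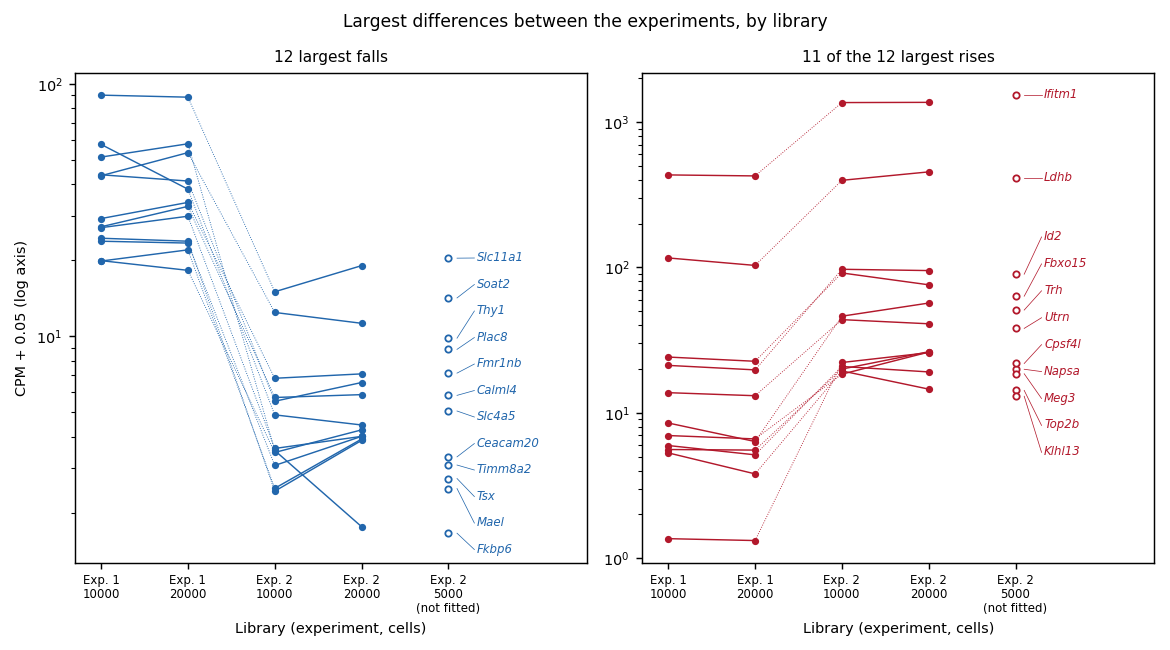
CPM plus 0.05 on a log axis of the 12 largest falls (left) and 11 of the 12 largest rises (right) in each library, drawn like the germline plot. In each gene both libraries of experiment 2 lie outside the range of experiment 1, and the open circles of the 5000-cell library lie on the experiment 2 side.

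The rises include a hormone precursor, an enzyme and membrane-linked proteins. Trh, the precursor of thyrotropin-releasing hormone, had 8.45 and 6.29 CPM in experiment 1, 46.1 and 56.8 CPM in experiment 2 and 50.8 CPM in the 5000-cell library (log2 fold change 2.81, SE 0.20, adjusted p = 4.08e-10 by edgeR). Ldhb, the lactate dehydrogenase subunit favouring pyruvate formation, stood at 116 and 103 CPM in experiment 1, 397 and 454 CPM in experiment 2 and 411 CPM in the 5000-cell library (log2 fold change 1.96, SE 0.12, adjusted p = 1.64e-10 by edgeR). In linear terms the fitted rises were 7.0-fold and 3.88-fold. Fbxo15, an F-box gene long used as a reporter of the pluripotent state, had 24.1 and 22.5 CPM in experiment 1, 91.5 and 75.8 CPM in experiment 2 and 63.3 CPM in the 5000-cell library. Ifitm1, an interferon-induced membrane protein, had 433 and 426 CPM in experiment 1, 1360.4 and 1365 CPM in experiment 2 and 1522 CPM in the 5000-cell library. Utrn (utrophin, the relative of dystrophin) had 13.7 and 13 CPM in experiment 1, 43.7 and 40.9 CPM in experiment 2 and 38 CPM in the 5000-cell library. All of them separated the experiments in each library. Top2b, a DNA topoisomerase, Klhl13, an X-linked ubiquitin ligase adaptor, Cpsf4l and the aspartic protease Napsa rose from between 3.75 and 6.92 CPM in experiment 1 to between 14.5 and 26.2 CPM in experiment 2.

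The falls are of mixed function. Calml4, a calmodulin-like gene, had 57.5 and 38.2 CPM in experiment 1, 4.84 and 4.41 CPM in experiment 2 and 5.79 CPM in the 5000-cell library (log2 fold change -3.37, SE 0.22, adjusted p = 2e-10 by edgeR). Slc4a5, a bicarbonate cotransporter, had 43.6 and 41.2 CPM in experiment 1, 5.48 and 6.51 CPM in experiment 2 and 5.01 CPM in the 5000-cell library. Slc11a1, a metal ion transporter known from macrophages, stood at 90.1 and 88.5 CPM in experiment 1, 15 and 19 CPM in experiment 2 and 20.3 CPM in the 5000-cell library. Their log2 fold changes were -2.81 and -2.39 (edgeR adjusted p = 4.02e-10 and 2e-10). Soat2, which esterifies cholesterol, had 43.2 and 53.3 CPM in experiment 1, 12.4 and 11.2 CPM in experiment 2 and 14.1 CPM in the 5000-cell library. Thy1, a surface glycoprotein shared by fibroblasts, T cells and stem cell lines, had 29.2 and 33.9 CPM in experiment 1, 6.77 and 7.05 CPM in experiment 2 and 9.78 CPM in the 5000-cell library. The 2 genes fell by 2.03 and 2.19 on the log2 scale. Fmr1nb, an X-linked gene known from testis and tumours, had 27.1 and 32.7 CPM in experiment 1, 5.67 and 5.83 CPM in experiment 2 and 7.1 CPM in the 5000-cell library; Ceacam20, Timm8a2 and Plac8 stood at 19.8 to 29.8 CPM in experiment 1 and 2.45 to 3.97 CPM in experiment 2. Plac8 was less low in the 5000-cell library, at 8.83 CPM.

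In the BMP, SMAD and Id list, 2 of 18 tested genes were higher and 2 lower. Id2, an inhibitor of basic helix-loop-helix factors and a BMP target, rose from 21.1 and 19.7 CPM to 97 and 95 CPM, with 89.7 CPM in the 5000-cell library (log2 fold change 2.24, SE 0.15, adjusted p = 2.02e-10 by edgeR). The related Id1 stood at 137 and 154 CPM in experiment 1, 174 and 154 CPM in experiment 2 and 144 CPM in the 5000-cell library. Id3 stood at 167 and 146 CPM in experiment 1, 182 and 206 CPM in experiment 2 and 194 CPM in the 5000-cell library; with Id4 they were not called, at log2 fold changes of 0.18, 0.31 and 0.27. The promoters of Id2 (chr12:25096043-25096342, minus strand) and Id3 (chr4:136143572-136143871, plus strand), set out for the contrast between a called and an uncalled member, carry the SMAD-type motifs GGCGCC and GTCTG in capitals, on either strand.
Id2: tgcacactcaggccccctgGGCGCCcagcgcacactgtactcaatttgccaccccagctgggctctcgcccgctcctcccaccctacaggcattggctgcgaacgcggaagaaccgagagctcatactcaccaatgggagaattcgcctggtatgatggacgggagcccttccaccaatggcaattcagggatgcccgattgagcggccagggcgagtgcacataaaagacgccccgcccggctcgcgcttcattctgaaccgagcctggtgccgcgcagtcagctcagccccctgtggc
Id3: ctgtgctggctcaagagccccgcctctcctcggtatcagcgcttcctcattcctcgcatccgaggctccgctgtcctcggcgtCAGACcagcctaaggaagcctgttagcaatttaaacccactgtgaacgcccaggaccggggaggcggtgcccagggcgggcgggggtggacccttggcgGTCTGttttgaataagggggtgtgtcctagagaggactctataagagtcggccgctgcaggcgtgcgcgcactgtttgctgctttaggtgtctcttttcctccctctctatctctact

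Id2 holds GGCGCC once and no GTCTG, and Id3 holds GTCTG at 2 places and no GGCGCC. Over all tested promoters GGCGCC occurs in 21.9% and GTCTG in 47.2%, so both strings are common. Bmp4, the ligand these cells make, stood at 59.7 and 43.1 CPM in experiment 1 and 43.3 and 44.5 CPM in experiment 2 and was not called. Gdf3, a ligand of the same superfamily, rose from 60.0 and 57.8 CPM to 114 and 129 CPM, with 119 CPM in the 5000-cell library (log2 fold change 1.05, SE 0.13, adjusted p = 5.55e-06 by edgeR). Smad9, a BMP-responsive SMAD, had 2.77 and 1.54 CPM in experiment 1 and 0 and 0 CPM in experiment 2 and 0 CPM in the 5000-cell library. Against a floor of 3 counts over both fitted libraries of experiment 2, Smad9 was at least 25.5-fold lower there; its edgeR adjusted p was 0.000904. Its call ended without the 10000-cell library of experiment 1 (-7.71, adjusted p = 0.0509). Bmp7 was called lower at 3.79 and 9.9 CPM in experiment 1 and 2.58 and 3.08 CPM in experiment 2. That call ended without the 10000-cell library of experiment 2 (-1.14, adjusted p = 0.247), without the 20000-cell library of experiment 1 (-0.40, adjusted p = 0.663) and without the 20000-cell library of experiment 2 (-1.39, adjusted p = 0.14).

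Among naive pluripotency genes 4 of 20 tested were higher and 0 lower (1 at an unadjusted p under 0.05 by edgeR and 0 called by DESeq2), with a median of 0.05. The count of 4 became 2 without the 10000-cell library of experiment 1, 2 without the 10000-cell library of experiment 2 and 2 without the 20000-cell library of experiment 2. Tcl1, a coactivator of AKT, rose from 98.3 and 95.4 CPM to 196 and 213 CPM with 195 CPM in the 5000-cell library (log2 fold change 1.08, SE 0.12, adjusted p = 1.14e-06 by edgeR), and Dppa3 was given above. Gbx2 and Klf4, which act downstream of LIF, had 35.3 and 41.5 CPM in experiment 1 and 51.7 and 57.3 CPM in experiment 2 and 65.1 and 67.2 CPM in experiment 1 and 83.7 and 93.4 CPM in experiment 2; their calls were lost when single libraries were left out, up to an adjusted p of 0.269 for Gbx2 (without the 10000-cell library of experiment 1) and 0.223 for Klf4 (without the 20000-cell library of experiment 2). Sox2 stood at 146 and 137 CPM in experiment 1 and 172 and 179 CPM in experiment 2. Esrrb stood at 74.5 and 82.2 CPM in experiment 1 and 82.2 and 85.4 CPM in experiment 2, and neither was called. Pou5f1 (Oct4) varied as much within an experiment as between them, at 229.5 and 151 CPM in experiment 1, 155 and 233 CPM in experiment 2 and 207 CPM in the 5000-cell library, and it has pseudogene copies that can take its reads.

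LIF and STAT3 genes had 4 of 18 tested higher and 2 lower; the 4 became 1 without the 10000-cell library of experiment 1, 1 without the 10000-cell library of experiment 2 and 1 without the 20000-cell library of experiment 2. Mycn, a Myc-family factor of stem cell growth, rose from 21.6 and 25.6 CPM to 64.9 and 60.3 CPM with 62.7 CPM in the 5000-cell library (log2 fold change 1.41, SE 0.16, adjusted p = 1.14e-06 by edgeR). Myc itself, of the FGF and ERK list, moved the other way, from 55.2 and 44.6 CPM to 26.7 and 23.9 CPM with 25 CPM in the 5000-cell library (log2 fold change -0.98, SE 0.17, adjusted p = 0.000258 by edgeR). Both genes had separate ranges. Socs3, the feedback inhibitor of LIF signalling, stood at 19.6 and 24.5 CPM in experiment 1 and 29.3 and 35.5 CPM in experiment 2; it was called, but not under DESeq2 (adjusted p = 0.0764) nor without the 10000-cell library of experiment 1 (0.41, adjusted p = 0.318), without the 10000-cell library of experiment 2 (0.69, adjusted p = 0.0659) and without the 20000-cell library of experiment 2 (0.43, adjusted p = 0.316). Stat3 stood at 41.3 and 41.9 CPM in experiment 1 and 38.2 and 42.4 CPM in experiment 2. Lifr, the receptor, stood at 36.1 and 50.1 CPM in experiment 1 and 55.4 and 42.2 CPM in experiment 2; neither passed the test. Myc was the only one called of 20 tested FGF and ERK genes, whose median was -0.15; the ligand Fgf4 stood at 137 and 168 CPM in experiment 1 and 138 and 145 CPM in experiment 2. The feedback gene Spry4 stood at 100.3 and 82.8 CPM in experiment 1 and 77.5 and 83.2 CPM in experiment 2.

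Formative genes, which mark the exit from the naive state, were called in both directions: 2 of 15 tested were higher and 3 lower. The 2 became 0 without the 20000-cell library of experiment 2, and the 3 became 1 without the 10000-cell library of experiment 1, 1 without the 10000-cell library of experiment 2 and 1 without the 20000-cell library of experiment 2. Utf1, a chromatin factor of early epiblast, fell from 595 and 557 CPM to 362 and 415 CPM with 424 CPM in the 5000-cell library (log2 fold change -0.57, SE 0.11, adjusted p = 0.00145 by edgeR). Zic2 was called higher at 0.437 and 1.07 CPM in experiment 1 and 4.0 and 4.75 CPM in experiment 2, but stood at 0.895 CPM in the 5000-cell library, inside the range of experiment 1. Its call ended without the 20000-cell library of experiment 2 (2.40, adjusted p = 0.0977). Nodal, a TGF-beta family ligand, fell from 60.6 and 57.7 CPM to 28.8 and 45.5 CPM with 28.6 CPM in the 5000-cell library (log2 fold change -0.67, edgeR adjusted p = 0.0116), a call lost without the 10000-cell library of experiment 2 (-0.37, adjusted p = 0.275). Of 17 tested Nodal and Lefty genes it alone was called; Lefty1, its inhibitor and target, stood at 45.5 and 42.3 CPM in experiment 1 and 41 and 53.5 CPM in experiment 2. The coreceptor Tdgf1 stood at 425 and 431 CPM in experiment 1 and 419.9 and 399 CPM in experiment 2. Of 19 tested Wnt genes, 2 were higher and 1 lower. The higher ones, Cdx1 and the receptor gene Fzd2, were not called under DESeq2, and their calls ended in 3 of the fits that left out 1 library, with adjusted p up to 0.296 and 0.322, both without the 20000-cell library of experiment 2. The ligand gene Wnt6 fell from 17 and 10.4 CPM to 2.0 and 2.55 CPM with 1.07 CPM in the 5000-cell library (log2 fold change -2.58, SE 0.32, adjusted p = 4.96e-06 by edgeR), and Axin2, the standard target, stood at 0.874 and 2.14 CPM in experiment 1 and 2.0 and 1.22 CPM in experiment 2.

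Some primitive endoderm markers fell. Of 18 tested, 6 were lower and 2 higher, and the median was -0.88. Dab2, an adaptor of endocytosis, had 8.23 and 4.35 CPM in experiment 1, 1.03 and 0.49 CPM in experiment 2 and 0.895 CPM in the 5000-cell library (log2 fold change -3.06, SE 0.53, adjusted p = 0.000264 by edgeR). Amn, a partner of the receptor cubilin, had 12.1 and 9.64 CPM in experiment 1, 2.26 and 3.08 CPM in experiment 2 and 2.45 CPM in the 5000-cell library (log2 fold change -2.01, SE 0.33, adjusted p = 0.000136 by edgeR). Srgn stood at 3.64 and 7.56 CPM in experiment 1, 0.193 and 0.49 CPM in experiment 2 and 0 CPM in the 5000-cell library. Gata6, the factor that starts the lineage, stood at 3.21 and 1.47 CPM in experiment 1, 0 and 0.294 CPM in experiment 2 and 0 CPM in the 5000-cell library; it was called lower, but not without the 10000-cell library of experiment 1 (-3.19, adjusted p = 0.333) and without the 10000-cell library of experiment 2 (-2.95, adjusted p = 0.143). Gata4 and Sox17 had too few counts to be tested. The genes called higher were Lrp2 and Apoe. Lrp2 had 9.98 and 8.5 CPM in experiment 1, 16.6 and 16.4 CPM in experiment 2 and 12 CPM in the 5000-cell library. Its log2 fold change was 0.84 (edgeR adjusted p = 0.016). The 2 higher calls became 1 without the 10000-cell library of experiment 1, 1 without the 10000-cell library of experiment 2 and 0 without the 20000-cell library of experiment 2. Apoe, a lipoprotein component that the stem cells express broadly, was called higher at 795 and 842 CPM in experiment 1 and 915 and 1256 CPM in experiment 2 (log2 fold change 0.41, edgeR adjusted p = 0.0293) and made up most of the list's summed level, 1048 and 1111 CPM in experiment 1 and 1120.0 and 1461 CPM in experiment 2. Apoe lost its call without the 10000-cell library of experiment 1 (0.37, adjusted p = 0.165) and without the 20000-cell library of experiment 2 (0.17, adjusted p = 0.41). Whether a smaller share of endoderm-like cells took part in these differences was not tested.

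Calls were also made in other lineage lists. In the early neural list 2 of 6 tested were higher: Pax6, a neural factor, had 0.146 and 0 CPM in experiment 1, 6.96 and 3.52 CPM in experiment 2 and 5.55 CPM in the 5000-cell library, which is 2 counts in experiment 1 and 180 in experiment 2, a ratio of 71.8 with a 95% exact counting interval of 19.6 to 598. The other, Ncam1, was at 1.67 CPM in the 5000-cell library, and its call ended without the 10000-cell library of experiment 1 (0.84, adjusted p = 0.185), without the 10000-cell library of experiment 2 (1.61, adjusted p = 0.0974) and without the 20000-cell library of experiment 2 (1.24, adjusted p = 0.253). The summed level of the 25 list genes outside chromosomes 8 and Y was 7.43 and 12.7 CPM in experiment 1 and 23.9 and 20.3 CPM in experiment 2. In the mesendoderm list 1 of 5 tested genes, Cdx1, was higher and 2, Snai1 and Mesp2, were lower. Eomes, a mesendoderm factor, had a log2 fold change of 1.92 and was not called (edgeR adjusted p = 0.0928). Mesp2 lost its call without the 10000-cell library of experiment 2 (-1.29, adjusted p = 0.0704). Snai1, a repressor of epithelial genes, fell from 8.3 and 7.96 CPM to 2.26 and 1.71 CPM with 2.57 CPM in the 5000-cell library (edgeR adjusted p = 0.000565). In the trophoblast and epithelium list Epcam, an epithelial adhesion molecule, fell from 55.9 and 52.1 CPM to 29.3 and 30.8 CPM with 27.1 CPM in the 5000-cell library (log2 fold change -0.84, SE 0.15, adjusted p = 0.000546 by edgeR). Anxa2, a membrane-binding protein, rose from 6.34 and 12 CPM to 23.9 and 24 CPM with 18.1 CPM there. The fibroblast list summed to 42.6 and 44.7 CPM in experiment 1 and 20.7 and 16.9 CPM in experiment 2. Thy1 was the only one called of its 7 tested genes and made up most of the sum in experiment 1. Col1a1 stood at 1.89 and 0.87 CPM in experiment 1 and 0.903 and 0.49 CPM in experiment 2. Of 3 Hox genes tested 0 were called (0 at an unadjusted p under 0.05 by edgeR and 0 called by DESeq2, in either direction).

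Some glycolysis and hypoxia genes rose: 7 of 34 tested were higher and 2 lower, 29 were above 0, and the median was 0.25. Beside Ldhb, the lactate exporter Slc16a3 rose from 11.6 and 16.9 CPM to 32.8 and 36 CPM with 28.7 CPM in the 5000-cell library (log2 fold change 1.27, SE 0.20, adjusted p = 8.13e-05 by edgeR). Tpi1, a glycolytic isomerase, rose from 256 and 274 CPM to 399 and 448 CPM with 371 CPM in the 5000-cell library (log2 fold change 0.68, SE 0.12, adjusted p = 0.000255 by edgeR). Aldoc, a glycolytic aldolase, had 11.1 and 14.5 CPM in experiment 1, 24.2 and 25.3 CPM in experiment 2 and 20.9 CPM in the 5000-cell library. All 3 had separate ranges, and the enzymes of the main path Pkm, Eno1 and Aldoa were not called, at log2 fold changes of 0.00, 0.04 and 0.08. Ddit4, an inhibitor of mTORC1 induced by hypoxia and by p53, fell from 33.2 and 50.5 CPM to 18.4 and 24 CPM with 18.7 CPM in the 5000-cell library (log2 fold change -0.98, SE 0.19, adjusted p = 0.00128 by edgeR). With no filter on low counts, and with a filter at 10 CPM, 11 genes of the list were called higher.

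Of 42 tested genes of the ATF4 and amino acid stress list 6 were higher and 4 lower. The 6 became 2 without the 10000-cell library of experiment 1 and 3 without the 20000-cell library of experiment 2, and the 4 became 2 without the 10000-cell library of experiment 1 and 0 without the 10000-cell library of experiment 2. Psat1, of serine synthesis, rose from 113 and 126 CPM to 189 and 195 CPM with 173 CPM in the 5000-cell library (log2 fold change 0.68, SE 0.12, adjusted p = 0.000438 by edgeR). Cth, of cysteine synthesis, rose from 30.7 and 26.4 CPM to 51 and 55.6 CPM with 49.4 CPM there (log2 fold change 0.90, SE 0.16, adjusted p = 0.000354 by edgeR). Ddit3 (Chop), a death-linked factor of stress, stood at 13 and 14.3 CPM in experiment 1, 3.61 and 7.54 CPM in experiment 2 and 6.2 CPM in the 5000-cell library; it was called lower, except without the 10000-cell library of experiment 2 (-0.85, adjusted p = 0.122). Atf4 stood at 629.7 and 623 CPM in experiment 1 and 566 and 591 CPM in experiment 2 and was not called. Of 32 tested cholesterol genes, 2 were lower and 0 higher (1 at an unadjusted p under 0.05 by edgeR and 0 called by DESeq2); Elovl6, which lengthens fatty acids, fell from 72.8 and 65.8 CPM to 39.1 and 41 CPM with 25.2 CPM in the 5000-cell library (edgeR adjusted p = 0.000585).

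The small heat shock proteins Hspb1 and Cryab fell. Hspb1 (Hsp27) fell from 2542 and 2333 CPM to 1356 and 1476 CPM with 1510.2 CPM in the 5000-cell library (log2 fold change -0.78, SE 0.10, adjusted p = 1.16e-05 by edgeR). Cryab (alphaB-crystallin) fell from 12.6 and 11.2 CPM to 3.16 and 2.69 CPM with 3.4 CPM there (log2 fold change -2.03, SE 0.31, adjusted p = 5.85e-05 by edgeR). Hsp90ab1 stood at 5453 and 5455 CPM in experiment 1 and 6140.2 and 6727 CPM in experiment 2. Hsf1, the factor that drives the response, stood at 79.2 and 80.9 CPM in experiment 1 and 70.4 and 74.5 CPM in experiment 2; neither was called. The list had 1 of 32 tested genes higher and 3 lower, near the 11.4% called over all genes. The higher one, Hspa8, had 1341 and 1200 CPM in experiment 1 and 1441 and 1929 CPM in experiment 2. Its log2 fold change was 0.41 (edgeR adjusted p = 0.0251), and 0.20 without the 20000-cell library of experiment 2. With the 5000-cell library added it was not called (edgeR adjusted p = 0.0515). Of 17 tested immediate early genes, 4 were lower (Myc, Btg2, Nr4a1 and Arc) and 0 higher (0 at an unadjusted p under 0.05 by edgeR and 0 called by DESeq2), with a median of -0.29; Fos and Egr1 were under 3 CPM in every library. Myc, Nr4a1 and Arc lie on chromosome 15. Its genes averaging 10 CPM or more had a median log2 fold change of -0.26, with 7 called higher and 81 lower among 313. Nr4a1, a nuclear receptor, had 57.9 and 81.3 CPM in experiment 1, 41.2 and 42.4 CPM in experiment 2 and 36.8 CPM in the 5000-cell library. Its call ended without the 20000-cell library of experiment 1 (-0.45, adjusted p = 0.11), and that of Arc without the 10000-cell library of experiment 2 (-0.58, adjusted p = 0.062).

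Cell cycle genes were called at shares near or below the 11.4% of all genes. Of 27 tested replication genes, 0 were higher (3 at an unadjusted p under 0.05 by edgeR and 1 called by DESeq2) and 2 were lower, among them Ccne1 (cyclin E1) at 791 and 769 CPM in experiment 1, 517 and 629.8 CPM in experiment 2 and 477 CPM in the 5000-cell library. That call ended without the 10000-cell library of experiment 1 (-0.42, adjusted p = 0.0849) and without the 10000-cell library of experiment 2 (-0.30, adjusted p = 0.131). The helicase subunits Mcm2 and Mcm7 had log2 fold changes of -0.05 and 0.00. Of 29 tested genes of G2 and mitosis, 2 were higher and 1 lower. Pttg1 (securin), the separase inhibitor, rose from 66.9 and 71.9 CPM to 163 and 148 CPM with 139 CPM in the 5000-cell library (log2 fold change 1.17, SE 0.13, adjusted p = 8.9e-07 by edgeR). Bub1, of the spindle checkpoint, rose from 58.4 and 59.2 CPM to 100.4 and 86 CPM with 70.5 CPM there (edgeR adjusted p = 0.00188). The medians of the lists were -0.05 and 0.02.

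The antigen presentation genes H2-K1 and Psmb9 on chromosome 17 fell. H2-K1, a class I heavy chain, went from 43.9 and 40.2 CPM to 13.8 and 14.6 CPM with 16.8 CPM in the 5000-cell library (log2 fold change -1.56, SE 0.18, adjusted p = 1.08e-06 by edgeR). Psmb9, an immunoproteasome subunit, fell from 11.5 and 11 CPM to 1.42 and 4.16 CPM with 0.895 CPM there (log2 fold change -1.98, SE 0.37, adjusted p = 0.000577 by edgeR). H2-K1 has close relatives, so its counts are uncertain. H2-D1, another class I heavy chain gene, was called lower at a log2 fold change of -0.50 (edgeR adjusted p = 0.0499), but not under DESeq2 nor when any 1 library was left out (adjusted p up to 0.248 without the 10000-cell library of experiment 2). B2m, the light chain encoded on chromosome 2, was called higher at 36.1 and 32.1 CPM in experiment 1 and 48.5 and 48.4 CPM in experiment 2, a call that ended when any 1 library was left out (adjusted p up to 0.147 without the 20000-cell library of experiment 1). The interferon list as a whole had 2 of 16 tested higher and 5 lower; the inducer Irf1 was not called, at a log2 fold change of 0.14. The 5 lower calls became 2 without the 10000-cell library of experiment 1, 3 without the 10000-cell library of experiment 2 and 2 without the 20000-cell library of experiment 2. Genes of chromosome 17 averaging 10 CPM or more had a median log2 fold change of -0.10.

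Genes of housekeeping complexes are set against the 11.4% called over all genes. The ribosomal protein, proteasome and nuclear respiratory chain lists were taken by gene symbol. The first also holds Rps6kl1, which is not a ribosomal protein gene. The last also holds the assembly factor genes Ndufaf1 to Ndufaf8 and the pseudogene Ndufs5-ps. None of these extra members was called. Of 86 tested genes of the ribosomal protein list, 4 were higher and 2 lower, with a median of 0.03. The largest steps were in paralogs: Rpl39l, a testis-enriched copy of Rpl39, fell from 241 and 233 CPM to 94 and 79.6 CPM with 88.9 CPM in the 5000-cell library (log2 fold change -1.45, SE 0.13, adjusted p = 2.65e-08 by edgeR). Rpl22l1, a copy of Rpl22, rose from 709.9 and 773 CPM to 1439 and 1212 CPM with 1489.5 CPM there (log2 fold change 0.84, SE 0.11, adjusted p = 1.44e-05 by edgeR). Rpl15, Rps4x and Rps24 were called higher by smaller steps, at log2 fold changes of 0.52, 0.46 and 0.34. Rpl15 and Rps24 lie on chromosome 14 and Rps4x on the X chromosome. Genes there averaging 10 CPM or more had medians of 0.19 and 0.13. Rps24 lost its call with cell number as a replicate block (0.34, edgeR adjusted p = 0.0653) and without the 10000-cell library of experiment 1 (0.28). Of 35 tested proteasome genes, 1 was higher and 3 lower. Of 86 tested genes of the nuclear respiratory chain list, 8 were lower and 0 higher (2 at an unadjusted p under 0.05 by edgeR and 0 called by DESeq2). The 8 became 4 without the 20000-cell library of experiment 1 and 4 without the 20000-cell library of experiment 2. Cox8c, a testis form of a cytochrome oxidase subunit, had 8.01 and 12.2 CPM in experiment 1, 3.29 and 3.23 CPM in experiment 2 and 3.46 CPM in the 5000-cell library (edgeR adjusted p = 0.0013). Atp5g1, of ATP synthase, had 1661 and 1641 CPM in experiment 1 and 1111 and 1185 CPM in experiment 2. Among the 13 mitochondrial mRNAs, 1 was higher and 2 lower.

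Direction held in the library that was left out of the fit. The 5000-cell library of experiment 2 lay on the matching side of the experiment 1 mean for 484 of the 505 genes called higher (95.8%) and for 833 of the 838 called lower (99.4%), against 70.1% of genes not called. It was nearer to the experiment 2 mean than to the experiment 1 mean for 368 of the higher (72.9%) and 766 of the lower genes (91.4%), against 58.3% of genes not called and 61.2% of all tested. It shares its day with the fitted libraries of experiment 2 and is compared with the same experiment 1 libraries, so it does not stand for another day.

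Chromosomes differed beyond the 2 that were left out. Genes of chromosome 15 averaging 10 CPM or more had a median log2 fold change of -0.26, with 7 called higher and 81 lower among 313, and those of chromosome 14 had 0.19, with 36 higher and 7 lower among 186. The X chromosome had a median of 0.13. Myc, Nr4a1, Arc, Dab2 and Soat2 are on chromosome 15, and Top2b, Timm8a2, Rpl15 and Rps24 on chromosome 14. After each chromosome's median was subtracted, the list medians were -1.20 for germline genes, -0.68 for p53 targets, 0.28 for the actin list and 0.30 for glycolysis, so that none changed sign. All 134 genes named by rule kept their direction after that subtraction.

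Open chromatin from the same cells gave another readout at promoters, as lists of peaks with no height. A peak within 1000 bp of the start was found for 52.1% and 61.6% of tested genes in the experiment 1 lists and for 66.1% and 79.2% in those of experiment 2, which are longer (18877 and 27016 peaks against 29870 and 49508). For the 838 genes called lower the shares were 44.0% and 50.7% in experiment 1 and 52.6% and 66.2% in experiment 2, with no test made. Of the 23 germline genes called lower, 5 and 6 had a promoter peak in experiment 1 and 7 and 9 in experiment 2. Fkbp6, Mael, Slc25a31 and Tsx, whose promoters are shown above, had none in any list, and Meg3 had none either. A peak in both lists of experiment 2 and neither of experiment 1 was found for 6.38% of all tested genes, 8.32% of those called higher (95% Wilson interval 6.21% to 11.1%) and 5.97% of those called lower (4.55% to 7.78%). Both intervals include the 6.38% of all tested genes. With peaks under 50 bp left out, the shares were 7.76% of all tested, 7.72% of the higher and 5.25% of the lower genes. Over all peaks, the reverse (both lists of experiment 1 alone) was found for 9 tested genes. Impact, Actb and Bend3 are among the higher genes of the first kind, and Nodal, Sparc and Ccne1 among the lower ones, so that a promoter peak gained in the lists went with either direction of the RNA.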

How the data were processed

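Whole-number counts per gene for 5 mRNA libraries were deposited by the authors in 1 table with mm10 coordinates. The submitters' processing notes name cutadapt, STAR 2.5 and featureCounts of Subread 1.5.0-p1 beside tools for chromatin data (Bowtie2 2.1.0, SAMtools 1.3.1, Picard, bedtools 2.24.0, MACS2 2.1.1). Strand use and the treatment of reads with several matches are not given in the sources used here, so antisense, overlapping and near-identical genes are uncertain. Peak intervals were deposited by the authors without scores, and their depth is unknown. All counts of the 5 columns were used (0 columns of other samples).

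The 4 fitted libraries were tested with edgeR 4.0.16 in R 4.3.3 (TMM, filterByExpr, quasi-likelihood, Benjamini-Hochberg adjustment over all 12523 genes tested, threshold 0.05), with no block; genes of chromosomes 8 and Y entered the fit and were then left out. The biological coefficient of variation was 17.1%. Standard errors are the absolute log2 fold change over the square root of F. Steps were tested on simulated counts. No 2 libraries agreed within sampling noise (chi-square per gene of at least 10.1). Counting intervals are at 95%, and a count of 0 is read against 3 counts; both cover counting error only. CPM at such a floor ran from 0.147 to 0.219. DESeq2 1.42.0, other scalings, filters, thresholds and left-out libraries served as alternatives.

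The comparison, the gene lists and the rules were chosen with earlier results of these data known, so the lists are no independent evidence. Named are the 12 largest rises and 12 largest falls by log2 fold change among called genes averaging 10 CPM or more with separate ranges. From each list come up to 6 called members averaging 1 CPM or more and its first 5 members. A gene that this rule names is not reported here. Some further genes were chosen for mention once their values were known. RefSeq promoters (GRCm38.p6) matched 9501 of 11825 tested genes, but 390 of 505 called higher and 634 of 838 called lower, under 80% of each, so no motif shares are given for those groups. Of 41 tested germline genes 35 matched. Id1 was not in the promoter table. Python 3.11.15, pandas 2.3.3, scipy 1.17.1 and matplotlib 3.10.9 were used.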

Additional observations from a re-analysis of the deposited data

Results flagged for a closer look

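Some lists had medians of opposite sign in the 2 pairs of libraries, experiment 2 minus experiment 1 in log2(CPM + 1), at 10000 and at 20000 cells. These were -0.0583 and 0.00642 for imprinted genes, -0.0201 and 0.093 for cholesterol genes, -0.0675 and 0.0886 for ATF4 genes, and -0.00854 and 0.0942 for G2 and mitosis. They were -0.449 and 0.00297 for the fibroblast list, 0.0985 and -0.00358 for ribosomal proteins, and -0.00375 and 0.11 for the proteasome. The nuclear respiratory chain had 0.0411 and -0.11, and mitochondrial mRNAs had -0.128 and 0.078. Of the named genes, Sesn2 differed by -1.51 at 10000 cells and by 0.0156 at 20000 cells. The difference between the pairs was not tested in any of these, since each cell number has 1 library per experiment.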

How the results depend on the processing

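The 1343 calls (505 higher, 838 lower) ran from 654 to 1601 when each library was left out in turn, from 248 to 740 for higher and from 405 to 861 for lower genes. A lone library was then assumed to vary like the other experiment's pair. With a log2 fold change of at least 1 also required there were 561, 188 higher and 373 lower. The other fits (RLE size factors, library size alone, TMM or the whole fit without chromosomes 8 and Y, DESeq2, no filter, a mean of at least 10 CPM, the 5000-cell library added) gave 1131 to 1422 calls, each within 1.5 times the first count. Cell number as a replicate block gave 1515 (586 higher, 929 lower). Libraries of equal cell number share only that number: their deviations did not correlate (r = -0.00339 over 12523 genes), so the pairing is not used. No gene called in both the first and another fit had opposite signs. Of 134 named genes, 92 to 103 kept their calls without 1 library and 122 under DESeq2. At a mean of at least 10 CPM only 93 were tested. Promoter peaks in both experiment 2 lists alone were found for 7.76% of tested and 7.72% of higher genes when peaks under 50 bp were left out, against 6.38% and 8.32%; at 500 bp from the start the shares were 6.20% and 7.72%. Subtracting chromosome medians and leaving out chromosomes 8 and Y before the fit were added after the data were seen. The cause of these shifts was not tested. There are 2 libraries per experiment and 1 day each, and single libraries decided calls of scarce and of abundant genes.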
